A study of Macaca mulatta with 10 samples.

Results

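The genes described here are 10 members of the BCL2 family, found by symbol among the 26484 rows of the deposited count table. All 10 were present: the survival genes BCL2, MCL1, BCL2L1 (BCL-XL) and BCL2A1 (BFL-1, also called A1), the effectors BAX and BAK1, and the BH3-only genes BCL2L11 (BIM), BID, PMAIP1 (NOXA) and BBC3 (PUMA). They were read in RNA-seq libraries of Tr1 cells, regulatory T cells defined by the surface proteins CD49b and LAG-3, sorted as CD4+CD49b+LAG-3+ from thawed blood mononuclear cells of rhesus monkeys. Each of the 10 libraries came from a different monkey, 5 of Cohort B and 5 of Cohort C. All the monkeys had been made diabetic with streptozotocin and given pancreatic islets. Per the study, the islet donors were MHC class I-disparate and shared an MHC class II DRB allele with the recipient. Both cohorts received short-term immunosuppression with the anti-CD40 antibody 2C10R4, rapamycin, soluble TNF receptor and anti-IL-6 receptor antibody. Cohort C also received infusions of apoptotic donor leukocytes (ADL) around the transplant, and Cohort B did not. Ages are given by the study as means of groups, not per monkey, and were not used here.

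The BCL2 family controls the permeability of the outer mitochondrial membrane, the step that commits most cells to apoptosis. BAX and BAK1 form the pores, the survival proteins hold them in check, and the BH3-only proteins either block the survival proteins or activate the effectors directly. In T cells, BCL2 and MCL1 maintain resting and activated cells, BIM removes cells after a response, and BCL2A1 is induced by antigen receptor and NF-κB signals. MCL1 and NOXA proteins are short-lived, and NOXA binds mainly MCL1 and A1. Transcript levels do not report these protein interactions.

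The libraries differed widely in depth, and this bears on every value given here. Total counts ran from 6076 to 1392157 in Cohort B and from 66485 to 5895609 in Cohort C, and from 465 to 15068 genes had at least 1 count. Over 1000000 counts were held by 4 libraries, those of monkeys 13EP12 and 13EP8 in Cohort B and 13EP5 and 15CP1 in Cohort C. At least 1 count was found for all 8 housekeeping genes examined in 13EP8, 13EP5 and 15CP1, for 7 in 13EP12 and 15CP6, and for 2 to 6 in the other 5 libraries. All 7 T cell genes examined had counts in the 4 deepest libraries, whose summed counts of these genes ran from 1785 to 8411. CD4 and the genes of the sort markers, ITGA2 (CD49b) and LAG3, were all at 0 in 14HP26, 14HP31, 14HP33 and 15CP4, so that the sorted cell type could not be checked there. ITGA2 and LAG3 were at 0 in 15CP6 and 14HP24 too, and LAG3 alone was at 0 in 13EP8. Per the labels, Cohort B was sampled at rejection and Cohort C at the end of the study, and the day of sampling of each monkey is not given in them. The records of the study, however, list 13EP12 and 13EP8 without rejection and the other Cohort B monkeys with it, and 15CP1 of Cohort C was not sacrificed at the planned end. Thus depth and rejection cannot be told apart within Cohort B. In bulk libraries, fewer cells of a type and less RNA per cell cannot be told apart either.

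The number of family genes found in a library went with the number of all genes found in it, except among the libraries with the fewest genes. There 14HP31, 15CP4, 14HP33 and 14HP26 had 465, 891, 1659 and 2753 genes and 2, 1, 0 and 1 members. Of the 100 values, 47 were above 0 and 53 were 0, of which 27 of 50 were in Cohort B and 26 of 50 in Cohort C. All 10 genes had counts in 13EP8, 13EP5 and 15CP1, and 6 in 13EP12. In 15CP6 there were 4, in 14HP24 there were 3, in 14HP31 there were 2, in 14HP26 and 15CP4 there was 1 each, and in 14HP33 there was none. The share of all tested genes that were detected ran from 92.2% in 15CP1 to 3.03% in 14HP31. The library of 14HP33 held 968423 counts over 1659 genes only, of which 0 belonged to the family. Levels are in CPM, counts per 1000000 counts of the library after its size was multiplied by a trimmed mean of M-values (TMM) factor. These factors ran from 0.0725 in 14HP33 to 4.23 in 14HP31. A count of 0 allows up to 3 counts, so a gene at 0 in 14HP33 could still have reached 42.7 CPM on its adjusted size. The same limit was 0.623 to 2.60 CPM in the 4 deepest libraries and 118.7 CPM in 14HP31. These limits, and the intervals of shares given later, cover counting error only, since PCR copies of a read were not told apart.

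**Figure D1:**
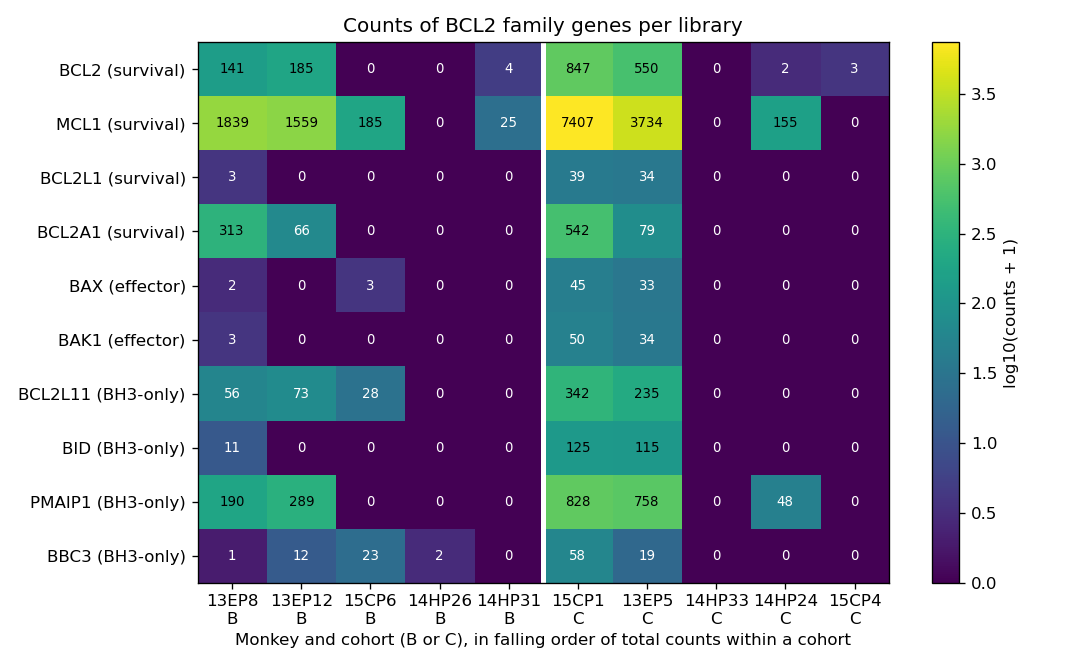
Read counts of the 10 BCL2 family genes (rows, ordered by role) in the 10 libraries (columns, by cohort, labelled with the monkey). The number in each cell is the count and the colour is its size on a log scale; MCL1 had the most counts of the family in 7 libraries, and 53 of the 100 cells are 0.

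MCL1, which encodes a short-lived survival protein, supplied most of the family's counts. It had 1559, 1839, 0, 25 and 185 counts in 13EP12, 13EP8, 14HP26, 14HP31 and 15CP6 of Cohort B. In 13EP5, 14HP33, 14HP24, 15CP1 and 15CP4 of Cohort C it had 3734, 0, 155, 7407 and 0 counts. The cohorts overlapped, with 1 library at 0 in Cohort B and 2 in Cohort C. In CPM, MCL1 was at 1353, 1406, 989 and 409 in the 4 Cohort B libraries where it was found, and at 1164, 895 and 1537 in the 3 of Cohort C. Its log2 fold change of Cohort C over Cohort B was -0.21 with a standard error (SE) of 1.82 in the edgeR quasi-likelihood fit over all genes. On the log2(CPM + 1) scale, where zeros weigh more, the means were 7.90 ± 4.47 in Cohort B and 6.12 ± 5.59 in Cohort C (SD, n = 5 each), a difference of -1.78 (exact permutation p = 0.714). It ranked 49th to 76th of all genes by counts in 13EP12, 13EP8, 13EP5, 14HP24 and 15CP1, 40th in 14HP31 and 371st in 15CP6. Of the family's counts, MCL1 took 71.4% in 13EP12 (95% Wilson interval 69.5% to 73.2%), 71.9% in 13EP8, 66.8% in 13EP5 (65.5% to 68.0%) and 72.0% in 15CP1.

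BCL2, the founding survival gene, had 185, 141, 0, 4 and 0 counts in the Cohort B libraries, in the order given for MCL1. In Cohort C it had 550, 0, 2, 847 and 3 counts. In the deepest libraries it was at 161 and 108 CPM in 13EP12 and 13EP8 and at 171 and 176 CPM in 13EP5 and 15CP1. On 4, 2 and 3 counts it was at 158 CPM in 14HP31, 11.5 CPM in 14HP24 and 18.7 CPM in 15CP4. In 15CP6, BCL2 at 0 could hold up to 6.64 CPM. Its log2 fold change was -0.14 (SE 2.01). The exact permutation test on log2(CPM + 1), over every division of the libraries into 5 and 5, gave p = 0.786 for means of 4.28 ± 3.92 in Cohort B and 4.57 ± 3.10 in Cohort C (SD, n = 5 each). The direction of the BCL2 difference thus changed with the scale, and the SDs were many times the difference.

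BCL2A1 and BCL2L1 were found in fewer libraries. BCL2A1 had 66 and 313 counts in 13EP12 and 13EP8, 79 and 542 in 13EP5 and 15CP1, and 0 in the other 6. The highest and the next of its levels, 239 and 112 CPM, were in different cohorts, as were the lower pair of 57.3 and 24.6 CPM. Its log2 fold change was -1.10 (SE 2.06). BCL2L1 had 3 counts in 13EP8, 34 in 13EP5 and 39 in 15CP1, and none elsewhere. Both Cohort C values, 10.6 and 8.09 CPM, exceeded the single Cohort B value of 2.29 CPM, and 13EP12 at 0 could hold up to 2.60 CPM. The log2 fold change of BCL2L1 was 2.51 (SE 1.91; adjusted p = 0.610, edgeR quasi-likelihood test with Benjamini-Hochberg adjustment over all genes).

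The effectors BAX and BAK1 were found at low levels. BAX had 2 counts in 13EP8, 3 in 15CP6, 33 in 13EP5 and 45 in 15CP1. BAK1 had 3 counts in 13EP8, 34 in 13EP5 and 50 in 15CP1. Every other library held 0 of either, among them 13EP12 with its 1191070 counts. In CPM, BAX was at 1.53 in 13EP8 and 6.64 in 15CP6 of Cohort B and at 10.3 and 9.34 in 13EP5 and 15CP1 of Cohort C. The log2 fold changes were 1.19 (SE 1.87) for BAX and 2.66 (SE 1.95) for BAK1, the largest of the 10 genes. BAK1 has processed pseudogenes, and reads of these copies could have been counted with it or lost.

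**Figure D2:**
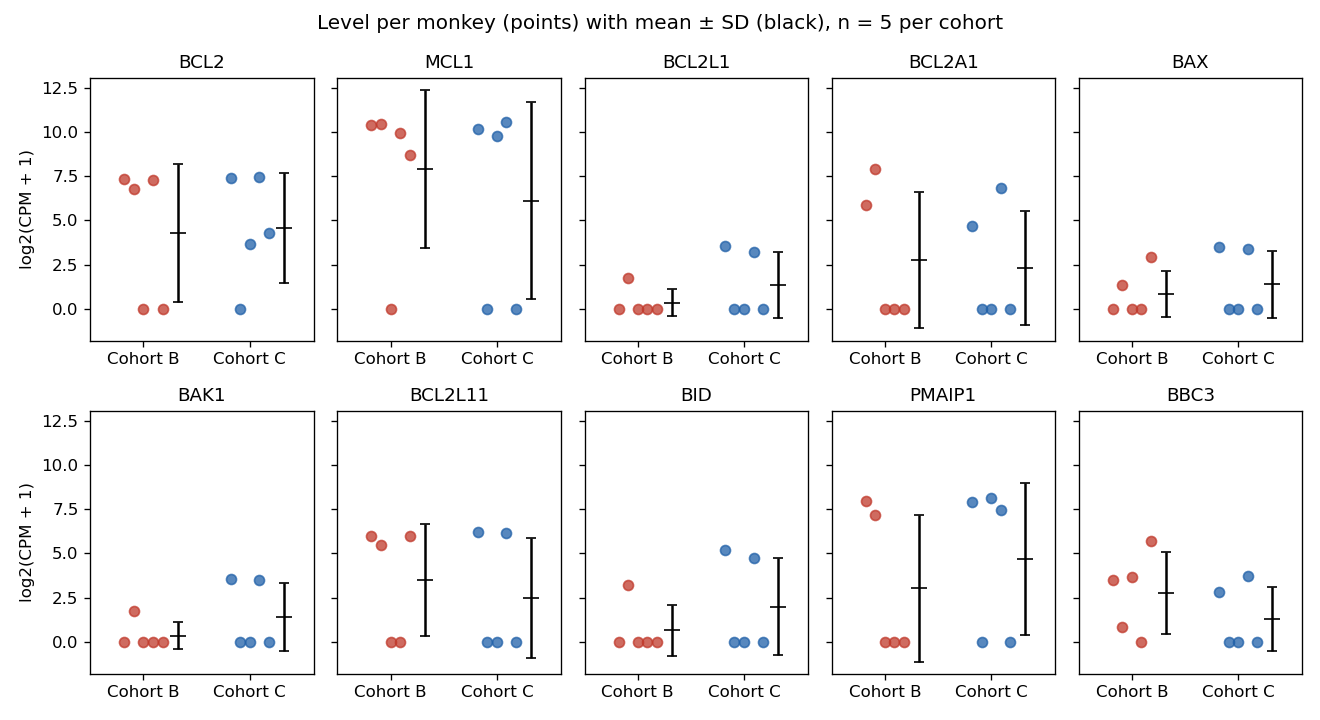
Level of each BCL2 family gene as log2(CPM + 1) on the vertical axis, for the 5 Cohort B and 5 Cohort C libraries (points), with the cohort mean and SD as bars. Points at 0 are libraries without a count; the cohorts overlap for all 10 genes.

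The BH3-only genes split into a more abundant pair, PMAIP1 and BCL2L11, and the rarer BID and BBC3. PMAIP1, the partner of MCL1 and A1, had 289 and 190 counts in 13EP12 and 13EP8, and 758, 48 and 828 in 13EP5, 14HP24 and 15CP1. It was at 0 in the other 5 libraries. Its CPM ran from 145 to 251 in the 2 Cohort B libraries and from 172 to 277 in the 3 of Cohort C, and its log2 fold change was 0.76 (SE 1.98). BCL2L11, whose product binds all survival proteins, had 73, 56 and 28 counts in 13EP12, 13EP8 and 15CP6 and 235 and 342 in 13EP5 and 15CP1. Those are 63.3, 42.8 and 62.0 CPM in Cohort B and 73.3 and 71.0 CPM in Cohort C. The log2 fold change of BCL2L11 was -0.23 (SE 2.05), and the gene was found in 3 libraries of Cohort B and 2 of Cohort C.

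BID, which links death receptors to mitochondria once it is cleaved by caspase-8, had 11 counts in 13EP8, 115 in 13EP5 and 125 in 15CP1 and none in the other 7. Its levels were 8.41 CPM in Cohort B and 35.9 and 25.9 CPM in Cohort C, with a log2 fold change of 2.54 (SE 2.15). BBC3, a p53 target, was the one member with a count in 4 Cohort B libraries besides MCL1. It had 12, 1, 2 and 23 counts in 13EP12, 13EP8, 14HP26 and 15CP6 and 19 and 58 in 13EP5 and 15CP1. Its highest level, 50.9 CPM, was in 15CP6, against 12.0 CPM in 15CP1 and 5.92 CPM in 13EP5. The log2 fold change of BBC3 was -1.87 (SE 2.09; edgeR adjusted p = 0.897), the lowest of the family.

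No member passed the test between the cohorts. With a call defined as an unadjusted p under 0.01 and a change of at least 1.5-fold, 0 of 10 members were called, beside 911 of 14168 genes (6.43%). At an adjusted p under 0.05 the edgeR test called 0 genes of the whole table (0%), with 2923 genes and 0 members at an unadjusted p under 0.05. The lowest adjusted p-value of a member was 0.576 (BAK1, edgeR). The permutation test gave p from 0.270 for BBC3 to 1 for BCL2L11, unadjusted, with 0.00794 the smallest p that 5 against 5 can give. Of the members, 5 had a positive and 5 a negative log2 fold change, with a median of 0.31, beside a median of 0.16 over all genes tested, 53.5% of which were positive. The SEs were 1.82 to 2.15 on the log2 scale, so that even the largest log2 fold change, 2.66 for BAK1, was not resolved. The library of 15CP1 alone held 39.2% (PMAIP1) to 57.5% (BAK1) of each member's counts.

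**Figure D3:**
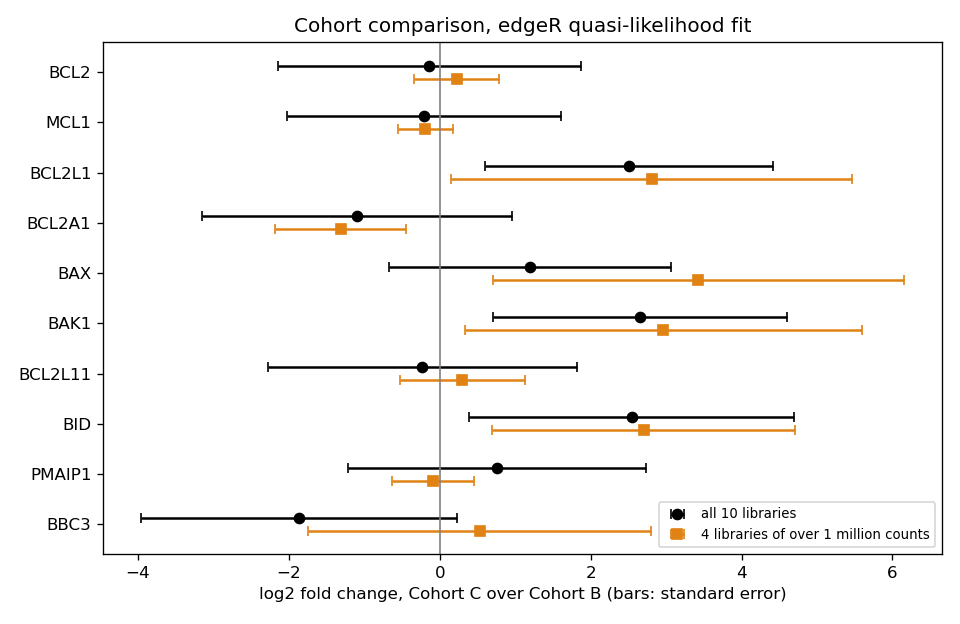
Log2 fold change of Cohort C over Cohort B for each BCL2 family gene, with 1 SE to either side, in the fit of all 10 libraries and in the fit of the 4 libraries with over 1000000 counts. In the fit of all 10 libraries the values lie between -1.87 (BBC3) and 2.66 (BAK1), and the SEs are 1.82 to 2.15.

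The 4 deepest libraries, 2 per cohort, were set side by side because the zeros weigh least there. This choice was made after the data had been seen. In TMM-scaled CPM, 6 of 10 members had both Cohort C libraries above both of Cohort B: BCL2, BCL2L1, BAX, BAK1, BCL2L11 and BID. The same was true of 4398 of 13722 genes (32.1%), and the opposite of 989 genes (7.21%) and of 0 members. With CPM scaled by library size alone, 4 members were so placed, beside 29.3% of genes, since BCL2 and BCL2L11 then overlapped. The 4 that did not change with the scaling were the low ones, BCL2L1, BAX, BAK1 and BID, all of which were at 0 in 13EP12. Both Cohort B libraries were shallower, at 1191070 (13EP12) and 1392157 counts (13EP8), against 3341503 (13EP5) and 5895609 (15CP1) in Cohort C. Cohort and depth therefore cannot be told apart in this set. In the edgeR fit of these 4 libraries, 0 members were called, beside 117 of 13274 genes (0.881%), and the adjusted p-values of the members ran from 0.800 to 0.980. There the log2 fold changes were 0.22 (SE 0.56) for BCL2, -0.19 (SE 0.36) for MCL1, -0.092 (SE 0.54) for PMAIP1 and 0.30 (SE 0.83) for BCL2L11. For the low genes the SEs stayed wide, as in BAX at 3.43 (SE 2.73) and BID at 2.70 (SE 2.01). A permutation test of 2 against 2 cannot give a p below 0.333.

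Counts of a survival gene and its antagonist can be compared within a library, where depth and scaling cancel. Such shares are of read counts and do not give the balance of the proteins. BIM made up 28.3% of the summed counts of BCL2L11 and BCL2 in 13EP12 (95% Wilson interval 23.1% to 34.1%), 28.4% in 13EP8 (22.6% to 35.1%), 29.9% in 13EP5 (26.8% to 33.2%) and 28.8% in 15CP1 (26.3% to 31.4%). The 4 shares lay within one another's intervals, and no cohort stood apart. Of the 45 pairs of members, 10 had more than 3 counts of both genes in these 4 libraries, and over them the log2 ratio of BCL2 to BCL2L11 had the smallest range, 0.11. The next smallest was 0.67 for BCL2 and PMAIP1. The pair was singled out after all ratios had been seen. In the deposited FPKM of the same libraries its log2 ratio had a range of 1.41, and BCL2L11 made up 49.0%, 29.5%, 52.7% and 38.9% of the summed FPKM of the pair, so that the even share held in the counts only. The smallest range in FPKM among the 10 pairs was 0.378, that of BCL2 and MCL1, so the steadiest pair depended on the measure. Outside these libraries the ratio of BCL2 to BCL2L11 did not hold: 15CP6 had 28 counts of BCL2L11 and 0 of BCL2.

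The share of NOXA beside MCL1 differed between monkeys of the same cohort. PMAIP1 made up 15.6% of the counts of the pair in 13EP12 (14.1% to 17.4%) and 16.9% in 13EP5 (15.8% to 18.0%). It made up 9.36% in 13EP8 (8.17% to 10.7%) and 10.1% in 15CP1 (9.42% to 10.7%). The intervals of the higher and the lower pair did not meet, and each pair held 1 monkey of each cohort. In the deposited FPKM, PMAIP1 made up 34.6% in 13EP12, 16.8% in 13EP8, 21.2% in 13EP5 and 12.3% in 15CP1. There 13EP5 lay nearer to 13EP8 than to 13EP12, so the clear split was seen in counts only. BCL2 was 7.12% (13EP8) to 12.8% (13EP5) of the counts of BCL2 and MCL1.

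BCL2A1 varied most among the abundant members. Beside MCL1 it made up 4.06% of the counts of the pair in 13EP12 (3.21% to 5.13%), 14.5% in 13EP8 (13.1% to 16.1%), 2.07% in 13EP5 (1.67% to 2.57%) and 6.82% in 15CP1 (6.28% to 7.39%). No 2 of these intervals met. Among the 10 pairs with more than 3 counts of both genes, the widest range of a log2 ratio was that of BCL2A1 to BCL2L11, at 4.04 in counts and 5.24 in FPKM. BCL2A1 is also expressed by myeloid cells, and 8 monocyte genes summed to 1277, 1199, 185 and 1389 CPM in 13EP12, 13EP8, 13EP5 and 15CP1. The lowest of these 4 sums and the lowest of the 4 BCL2A1 levels were both in 13EP5, while the highest BCL2A1 level, in 13EP8, went with the third highest sum. In 15CP6 and 14HP24 the monocyte genes summed to 885 and 439 CPM with BCL2A1 at 0, which allows up to 6.64 and 17.3 CPM. FCN1 was at 0 in all libraries but 15CP1, and S100A8 and S100A9 were at 0 in 13EP5. The part of monocytes in the BCL2A1 values was not tested.

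**Figure D4:**
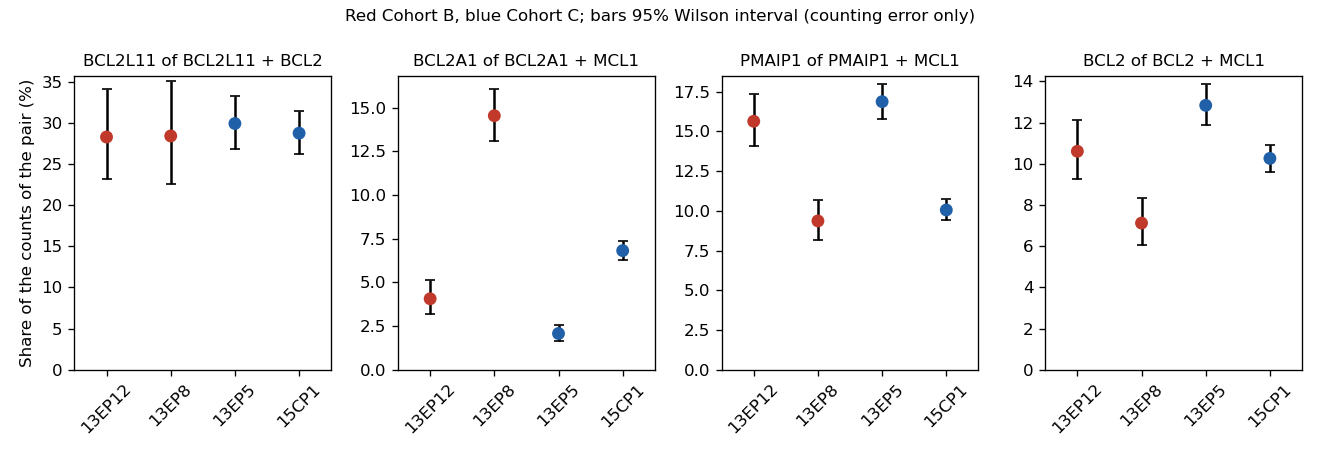
Share of 1 gene in the summed counts of a pair (percent, vertical axis) in the 4 libraries with over 1000000 counts, for BCL2L11 beside BCL2 and for BCL2A1, PMAIP1 and BCL2 beside MCL1. Bars are 95% Wilson intervals; the BCL2L11 shares lie between 28.3% and 29.9%, and the BCL2A1 shares between 2.07% and 14.5%.

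Levels of different genes were compared in the deposited FPKM values, which are per length of transcript. MCL1 had the highest FPKM of the family in each of the 4 deepest libraries, at 229 in 13EP12, 331 in 13EP8, 1827 in 13EP5 and 272 in 15CP1. PMAIP1 followed in 13EP12 (121 FPKM) and 13EP5 (492 FPKM). BCL2A1 followed in 13EP8 (245 FPKM) and 15CP1 (105 FPKM). BCL2 followed MCL1, PMAIP1 and BCL2A1 in 13EP12, 13EP8 and 15CP1, and MCL1, PMAIP1 and BCL2L11 in 13EP5, at 18.2, 24.5, 176 and 25.9 FPKM. These orders are given within a library only, because the FPKM scale differed between libraries: the sum over the members was 0.220 to 0.347 times their summed CPM in 13EP12, 13EP8 and 15CP1 and 1.81 times in 13EP5. Low values also differed between the tables. Of the 47 values with counts, 8 had an FPKM of 0, the largest being the 28 counts of BCL2L11 in 15CP6, and 2 values had an FPKM above 0 without a count.

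**Figure D5:**
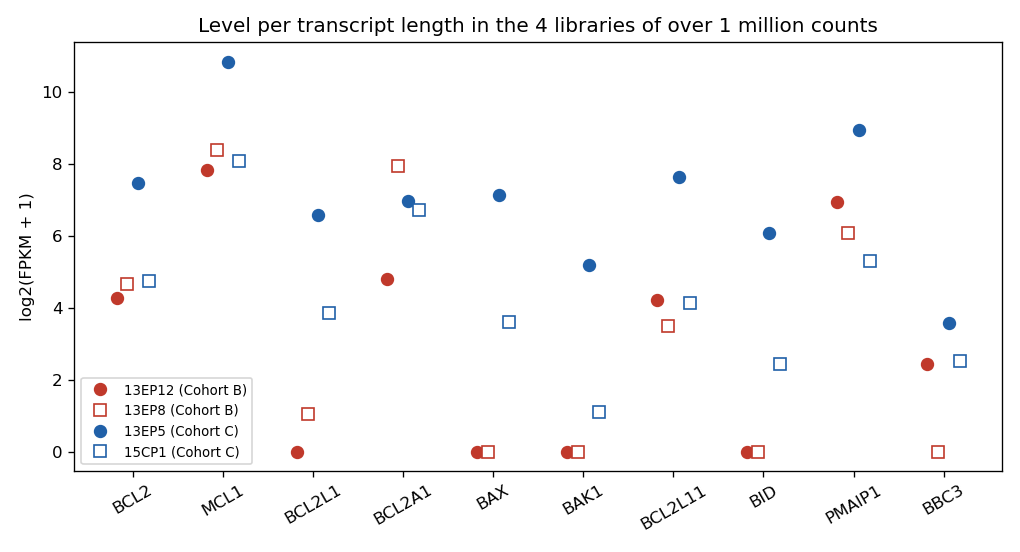
Deposited FPKM of the BCL2 family genes in the 4 libraries with over 1000000 counts, on a logarithmic axis. MCL1 is highest in each library, at 229 to 1827 FPKM. The points of 13EP5 are the highest for every gene but BCL2A1, which is at 245 in 13EP8 and 124 in 13EP5. Because the FPKM scale differs between libraries, heights can be compared within a library only.

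The wider apoptosis pathway was read in 58 further genes, chosen by function. All 58 were in the table and 51 had the 10 counts needed for testing. Of these, 26 had a positive and 25 a negative log2 fold change, and 0 were called. The median was 0.00 over the lists together. It was 0.34 for 9 other BCL2 family genes, -0.34 for 15 genes of the caspase cascade, 0.07 for 7 inhibitors of apoptosis, 0.34 for 8 death receptor genes and -0.18 for 12 regulators of the members. Setting the 3 genes that were absent from 1 cohort at the fold that a floor of 3 counts over that cohort allows left these medians as they were.

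The pathway genes with the most counts were BIRC6, a ubiquitin ligase that restrains caspases, CFLAR (c-FLIP), which blocks caspase-8, STAT3, CASP8 and CYCS (cytochrome c). BIRC6 had 11645 counts, with a log2 fold change of -0.40 (SE 1.83), and was found in 9 of 10 libraries, 14HP33 included. CFLAR had 3957 counts in 9 libraries and a log2 fold change of 0.07 (SE 1.92). The log2 fold changes of STAT3, CASP8 and CYCS were -0.10, 0.43 and -0.54, with SEs of 1.97 to 1.98. None passed the test.

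Of the 51 genes, 4 had an unadjusted p under 0.05 in the edgeR fit, beside 20.6% of all genes, and are named for that after their values were seen. BIRC5 (survivin), an inhibitor of apoptosis expressed in dividing cells, had 42 counts in 13EP5 and 51 in 15CP1 and 0 in the other 8 libraries (edgeR adjusted p = 0.141). BCL2L2 (BCL-W), a survival gene, had 57 counts in 13EP12 and 3 in 15CP1 and 0 elsewhere (edgeR adjusted p = 0.207). TNFRSF10B, a TRAIL receptor, had 5 and 19 counts in 13EP5 and 15CP1 alone (edgeR adjusted p = 0.181). ENDOG, a mitochondrial nuclease, had 8 counts in 14HP24 and 12 in 15CP1 (edgeR adjusted p = 0.141). Each rested on 2 libraries.

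The genes whose log2(CPM + 1) was most like that of MCL1 over the 10 libraries were HIST1H1C (Pearson r = 0.986), YPEL3 (r = 0.985), ATP6V1G1 (r = 0.983), MAD1L1 (r = 0.982) and RASGRP2 (r = 0.981), of 14167 genes compared. Spearman's rho for them was 0.776, 0.975, 0.901, 0.739 and 0.826. In all, 48 genes had an r above 0.9. Among the members themselves BCL2L1 and BAK1 were most alike (r = 0.998), being found in the same 3 libraries. These correlations are descriptions, since the points share the depth of the libraries and many are 0.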

How the data were processed

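RNA from flow-sorted Tr1 cells of 10 monkeys was made into stranded libraries (Clontech Pico kit) and sequenced in pairs of reads by the authors. Per the submitters' processing notes, FastQC, HISAT2 2.0.2, Cuffdiff 2.2.1, edgeR and the human build hg38 were used, so monkey reads were aligned to the human genome. The counting options are not given in the sources used here. The authors deposited raw read counts per gene, which were not normalized, and FPKM values from Cuffdiff. Reads that do not align across species are lost, at a rate that can differ between genes and was not compared between libraries here.

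Groups were taken from the labels. Genes whose counts summed to 10 or more were tested for Cohort C against Cohort B with edgeR 4.0.16 (quasi-likelihood test, TMM, no covariate, R 4.3.3), 14168 genes in all. The SE is the size of the log2 fold change divided by the square root of the F statistic. Each member was also tested by a two-sided exact permutation test. The FPKM scale was used for order within a library and as an alternative (limma 3.58.1, pseudocount 1, mean FPKM of at least 1). Wilson intervals used 95% confidence. The scripts were tested on simulated data.

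The members and gene lists were chosen with earlier results of these data known. Named were the 10 members, any pathway gene called or else the 5 with the most counts, and the 5 genes most like the most abundant member. Alternatives were other normalizations, filters, tools (DESeq2 1.42.0, limma-voom), covariates and sets of libraries. Every library is a different monkey.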

Additional observations from a re-analysis of the deposited data

Results flagged for a closer look

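There were 4 values that stood far from the other libraries of their cohort on the log2(CPM + 1) scale, of 20 groups of 5 libraries examined, where chance gives about 1 in 20. MCL1 was at 0 in 14HP26 of Cohort B, while the other 4 libraries of that cohort lay between 8.68 and 10.46. The gap was 0.830 of the range. The library held 113884 counts, had counts for 4 of the 8 housekeeping genes, and a count of 0 there allows up to 17.6 CPM, against 409 CPM in the lowest of the others. BCL2L1 and BAK1 were at 1.72 each, and BID was at 3.23, in 13EP8 of Cohort B, where the other 4 libraries of the cohort were at 0. The gap is then the whole range, and the chance figure does not apply where the rest are all 0. BCL2L1 and BAK1 rested on 3 counts each in that library and BID on 11. A count of 0 allows up to 2.60 CPM in 13EP12, 17.6 CPM in 14HP26, 118.7 CPM in 14HP31 and 6.64 CPM in 15CP6. BCL2L1 and BAK1, at 2.29 CPM each in 13EP8, lay below all these limits. BID, at 8.41 CPM, lay below those of 14HP26 and 14HP31. The sorted population's own markers were at 0 in 14HP26, and the causes of these values were not tested.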

How the results depend on the processing

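No member was called under any of the 24 alternatives, at either threshold, and the smallest unadjusted p was 0.0191 (BCL2A1, in the fit of the 3 libraries with all 8 housekeeping genes, 13EP8 against 13EP5 and 15CP1, where the lone Cohort B library is assumed to vary like the others). Of 234 log2 fold changes 205 kept their sign and 29 did not; of 150 permutation differences 134 did and 16 did not. BCL2 turned positive under DESeq2 size factors and DESeq2 (0.052 and 0.053), limma-voom (0.29), the index suffix covariate (0.26), the 3 housekeeping libraries (0.50) and the 4 deepest libraries (0.22). In those 2 sets of libraries BCL2L11 was at 0.57 and 0.30 and BBC3 at 3.29 and 0.53; PMAIP1 was at -0.092 in the deepest. On FPKM, BCL2A1 was at 0.19, BCL2L11 at 0.81 and the BCL2 difference at -0.40. Without the 3 libraries labelled with an index suffix, the BCL2 permutation difference was -0.23; in the 4 deepest, those of BCL2L11 and BBC3 were 0.46 and 1.08.

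Leaving out 1 library moved the log2 fold changes from -0.73 to 0.40 (BCL2), -0.70 to 0.21 (MCL1), -3.10 to 0.71 (BCL2A1, positive without 13EP8) and -1.03 to 0.081 (BCL2L11). Without a change of sign they ran from 1.56 to 6.94 (BID), 1.97 to 5.55 (BAK1), 1.68 to 5.42 (BCL2L1), 0.54 to 2.74 (BAX), 0.35 to 1.80 (PMAIP1) and -2.90 to -0.23 (BBC3). The highest values of BID, BAK1 and BCL2L1 came without 13EP8, with unadjusted p under 0.05, when Cohort B holds none of their counts and the fold depends on the prior count. MCL1 was at -1.95 in limma-voom and -1.02 by library size alone. The permutation differences then ran from -0.78 to 1.43 (BCL2), -1.58 to 0.84 (BCL2A1) and -0.012 to 1.04 (BAX, negative without 13EP5). The causes were not tested.

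Replicate numbers are shared between the cohorts, but belong to different monkeys, and deviations of same-numbered libraries correlated at 0.375, -0.289, 0.0213, -0.431 and -0.0382, so they do not pair. With the replicate number as a block, BCL2 was at 0.99, MCL1 at -1.34 and 0 genes were called.

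Calls over all genes were 911, 563 with DESeq2 size factors, 928 by library size alone, 1000 without a filter, 10 with edgeR's filterByExpr (3414 genes, 4 members tested), 88 with edgeR's exact test, 22 with DESeq2, 67 with limma-voom, 98 with the index suffix as covariate, 27 without suffixed libraries, 908 in the 3 housekeeping libraries, 2 on FPKM, 453 with edgeR's bias-adjusted test, and 76 (without 13EP5) to 695 leaving out 1 library, 143 without 15CP1. The median log2 fold change of all genes, 0.16, was 0.34 with DESeq2 size factors, -0.11 by library size alone, 0.74 on FPKM, and from -0.58 (without 15CP1) to 0.83 (without 13EP8) leaving out 1 library. Pathway genes called were 0 except in the 3 housekeeping libraries, where 5 were, all positive. The bias-adjusted test and the 4 deepest libraries were added after seeing the data. Depth, together with the TMM factors, limits the 6 shallower libraries most: a gene at 0 there could lie at 6.64 to 118.7 CPM.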

Other observations

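Markers of other blood cells were unevenly spread over the libraries. Of 4 B cell genes, summed counts were 0 in 4 libraries and up to 273 in 15CP1. Those of 5 CD8 and NK cell genes were 0 in 5 libraries and up to 257 in 13EP12. The 4 platelet genes reached 487 counts in 13EP5 and at most 26 elsewhere. The 4 erythroid genes had 188 counts in 15CP6, 93 in 14HP33 and 6 in 14HP26, and 0 in the other 7. The 8 monocyte genes had 1472 counts in 13EP12, 1568 in 13EP8, 593 in 13EP5 and 6693 in 15CP1. In the same libraries the 7 T cell genes had 1793, 1785, 4540 and 8411 counts. The monocyte genes had 0 counts in 14HP26, 14HP31 and 15CP4. The part of these other blood cells in the family's values was not tested.

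The summed counts of the 10 BCL2 family genes were 167 to 184 per 100000 counts in the 4 deepest libraries, 150 in 14HP24 and 52.5 in 15CP6. They were 477 in 14HP31, on 29 counts in all, and 4.51, 1.76 and 0 in 15CP4, 14HP26 and 14HP33.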
